A study of Mus musculus with 2 samples.

Results

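Many genes can start transcription at more than 1 place, and in some the alternative starts lie far apart along the chromosome. The genes described here are the protein-coding genes of mouse chromosomes 1 to 19 whose annotated protein-coding transcripts start at sites that span 20 kb or more. They numbered 2563 of the 20722 protein-coding genes on these chromosomes. The rule that picks them uses the gene annotation alone and no measured value, but was chosen with earlier results of these data known. Starts that followed each other within 1000 bp were merged into 1 promoter, which gave these genes 7539 promoters of the 30989 of all genes, with a median of 3 and at most 12 per gene. The median span was 53.9 kb. A further 4511 genes had 2 or more promoters within less than 20 kb, and 13648 genes had 1 promoter.

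The chromatin of the cerebellum was mapped by DNase-seq, an assay in which DNase I is let into nuclei and peaks mark the places it cuts often, where DNA is accessible. The 2 libraries came from male B6CASTF1/J mice, first-generation hybrids of B6 and CAST mice, at an age of 4 days. Each label names 3 males, and the libraries are numbered as biological replicates 1 and 2, so the series is 1 group with n = 2 and no treatment or genotype contrast. The tissue is a mixture of cell types, so a weak peak in all cells and a strong peak in a few cannot be told apart.

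Alternative promoters give a gene separate switches that different cell types or stages can use, and they often give proteins that differ at the amino terminus. They are well known in nervous tissue: the neurotrophin gene Bdnf places a promoter before each of several leading exons, and phosphodiesterase 4 genes make long and short enzymes from different promoters. A promoter in open chromatin is accessible, which is not the same as being transcribed, and DNase-seq measures accessibility alone.

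A promoter was called open in a library when a peak of the larger deposited peak list lay within 500 bp of 1 of its starts, by an overlap of at least 1 bp, and its value was the signal of the strongest such peak. These values are the authors' own normalised signal, the factor behind them is not stated, and the depth in reads is unknown, so values are read mainly as an order within a library. Replicate 2 had 131518 peaks and replicate 1 had 61896, so a promoter had more chances to be called open in replicate 2. Of 11 neural marker genes, 10 had an open promoter in both libraries and all 11 in replicate 2. None of 8 genes of liver, skeletal muscle and keratinocytes (Alb, Apoa1, Hnf4a, Myod1, Myog, Acta1, Krt5 and Krt14) had one in either library.

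The DNA before a few of these promoters is shown to give the kind of sequence that was open or closed. Each line holds the 150 bases just before the most upstream start of a promoter, 5′ to 3′ on the strand of the gene, from the RefSeq copy of the mouse genome (mm10), and overlaps no annotated exon. Capitals mark CpG dinucleotides, which are rare in most of the genome and dense in CpG island promoters. Both promoters shown for Rora, Fgf14 and Dclk1 were open in both libraries, whereas Robo1 had its upstream promoter closed and its downstream promoter open. Closed means without a peak, and the upstream promoter of Robo1 did hold a short interval of frequent cutting in replicate 2.
Rora upstream promoter, open in both libraries, chr9:68653636-68653785, plus strand: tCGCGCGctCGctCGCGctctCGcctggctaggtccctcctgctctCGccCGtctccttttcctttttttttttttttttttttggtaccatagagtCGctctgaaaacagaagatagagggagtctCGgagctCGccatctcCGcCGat
Rora downstream promoter, open in both libraries, chr9:69289532-69289681, plus strand: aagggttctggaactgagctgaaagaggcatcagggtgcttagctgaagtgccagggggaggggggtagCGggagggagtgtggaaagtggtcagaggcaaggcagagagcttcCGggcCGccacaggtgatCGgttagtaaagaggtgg
Robo1 upstream promoter, open in neither library, chr16:72308156-72308305, plus strand: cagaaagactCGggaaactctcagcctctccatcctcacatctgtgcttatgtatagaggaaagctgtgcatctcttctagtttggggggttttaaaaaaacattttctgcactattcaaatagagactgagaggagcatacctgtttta
Robo1 downstream promoter, open in both libraries, chr16:72662999-72663148, plus strand: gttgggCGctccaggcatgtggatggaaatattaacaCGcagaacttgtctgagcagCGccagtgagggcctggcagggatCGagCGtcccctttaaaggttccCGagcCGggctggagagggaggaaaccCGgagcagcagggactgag
Fgf14 upstream promoter, open in both libraries, chr14:124677128-124677277, minus strand: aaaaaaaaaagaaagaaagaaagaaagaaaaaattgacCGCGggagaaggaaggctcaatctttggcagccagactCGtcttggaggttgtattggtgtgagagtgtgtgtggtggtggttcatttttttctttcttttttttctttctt
Fgf14 downstream promoter, open in both libraries, chr14:124192903-124193052, minus strand: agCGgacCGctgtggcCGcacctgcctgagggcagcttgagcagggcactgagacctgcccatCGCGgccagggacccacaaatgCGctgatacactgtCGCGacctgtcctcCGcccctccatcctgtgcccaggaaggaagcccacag
Dclk1 upstream promoter, open in both libraries, chr3:55242214-55242363, plus strand: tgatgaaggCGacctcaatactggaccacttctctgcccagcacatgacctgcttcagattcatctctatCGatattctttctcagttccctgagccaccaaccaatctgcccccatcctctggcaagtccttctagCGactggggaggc
Dclk1 downstream promoter, open in both libraries, chr3:55461578-55461727, plus strand: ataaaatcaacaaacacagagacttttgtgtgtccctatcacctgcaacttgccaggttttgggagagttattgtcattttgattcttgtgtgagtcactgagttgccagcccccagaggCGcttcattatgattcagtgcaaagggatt
The 2 lines for Robo1 differ plainly: the closed upstream promoter held 1 CpG in these bases and 41.3% G or C, and the open downstream promoter held 8 CpGs and 60.7%. The Rora promoters, both open, held 14 and 4 CpGs. The downstream promoter of Dclk1 was open with 1 CpG, so an open promoter was not always CpG-rich.

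Open promoters were found mostly at the upstream end of these genes. Of their 7539 promoters, 2694 (35.7%) were open in both libraries, against 42.9% of the promoters of all genes, and 4189 (55.6%) were open in neither. A further 577 were open in replicate 2 alone and 79 in replicate 1 alone. Among the most upstream promoters 1857 of 2563 (72.5%) were open in both libraries, against 55% of the most upstream promoters of all genes with 2 or more promoters. The share was 20.8% at internal promoters (501 of 2413), against 20.6% over all such genes, and 13.1% at the most downstream promoters (336 of 2563), against 13.2%. The internal and downstream shares were thus close to the background, and the upstream share was above it. In genes whose starts span less than 20 kb the upstream, internal and downstream shares were 45.1%, 20.3% and 13.3%, and 57.1% of promoters of genes with 1 promoter were open.

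**Figure D1:**
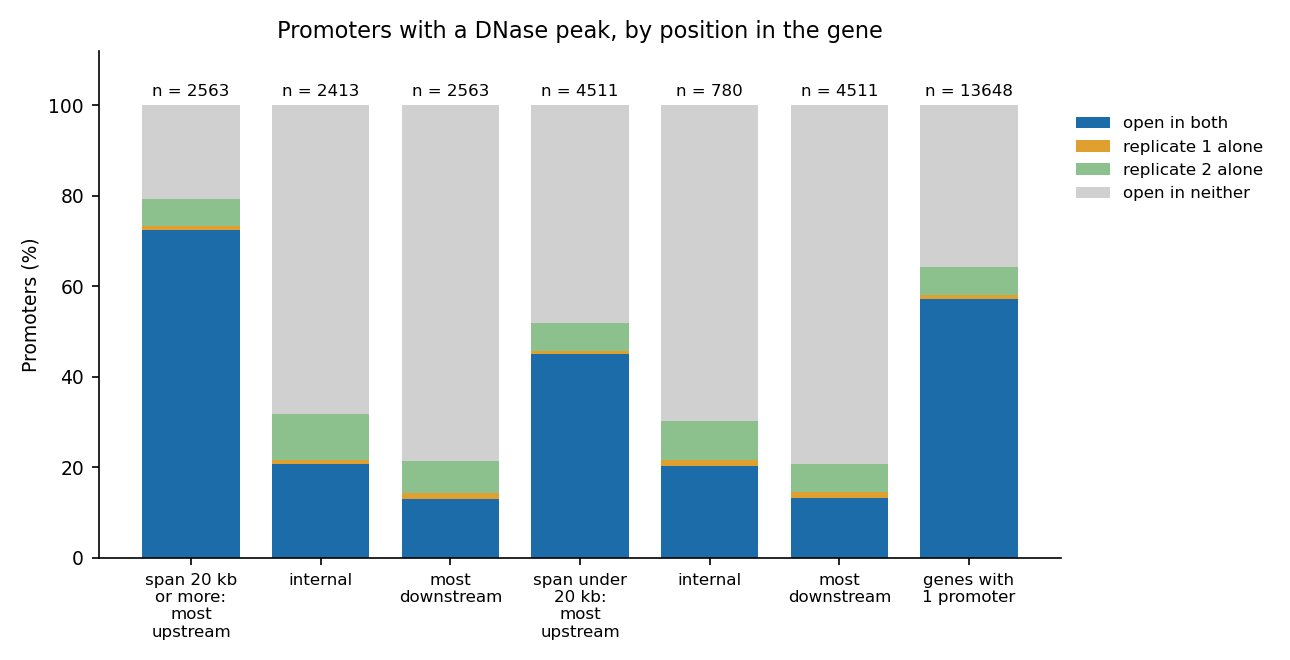
Share of promoters (%) open in both libraries, in replicate 1 alone, in replicate 2 alone or in neither, for genes whose starts span 20 kb or more (left 3 bars), genes with 2 or more promoters spanning less (next 3 bars) and genes with 1 promoter, with the number of promoters above each bar. The most upstream bar of the long-span genes reaches 72.5% open in both, against 45.1% for the shorter-span genes, while the internal and downstream bars of both kinds lie between 13.1% and 20.8%.

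Signal followed the same order as the calls. Where promoters were open in both libraries, the median value was 2.03 in replicate 1 and 3.96 in replicate 2 at upstream promoters. At internal promoters it was 1.15 in replicate 1 and 1.98 in replicate 2, and at downstream promoters 1.07 and 1.78. In both libraries the upstream promoters of these genes were therefore the stronger ones, and the internal and downstream medians lay close to each other. The upstream median of 2.03 in replicate 1 stood beside 2.25 at upstream promoters of the shorter-span genes and 2.22 at genes with 1 promoter.

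How well a start is annotated moved with these shares. In the gene annotation 1941 of the 7539 promoters (25.7%) rest only on transcripts whose true start was not found, and 48 of them (2.47%) were open in both libraries. Of the other 5598 promoters, 2646 (47.3%) were open in both. Starts that were not found made up 1287 of the 2563 most downstream promoters and 11 of the most upstream ones. Among promoters with a found start, 72.6% of upstream, 27.5% of internal and 24.1% of downstream promoters were open in both libraries, so the upstream excess was present in them too, with a smaller gap.

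Most of these genes had 1 open promoter. A promoter was open in both libraries in 2136 of the 2563 genes (83.3%), against 59.6% of all protein-coding genes. Exactly 1 was open in 1663 genes (64.9%), and 473 genes (18.5%) had 2 or more, against 11.8% of all genes with 2 or more promoters. With the stricter deposited peak list the count was 263 (10.3%), against 6.74%. Of the 473, 407 had 2 open promoters, 51 had 3, 12 had 4, 2 had 5 and 1 had 6. No promoter was open in either library in 255 genes (9.95%), against 33.3% of all genes, and the remaining 172 had promoters open in 1 library only. By each library alone, 513 genes in replicate 1 and 751 in replicate 2 had 2 or more open promoters.

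The count of open promoters went with the count of annotated ones. Of genes with 2 promoters 9.95% had both open, of those with 3 promoters 18.9% had 2 or more open, and of those with 4 promoters 31.2%. The share was 34.9% with 5 promoters, 45.7% with 6 and 52.9% in the 68 genes with 7 or more. A gene with more annotated promoters has more chances to show 2, so the comparison at a fixed number is the closer one: among genes with exactly 2 promoters, both were open in 123 of 1236 genes spanning 20 kb or more (9.95%) and in 251 of 3881 genes spanning less (6.47%).

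**Figure D2:**
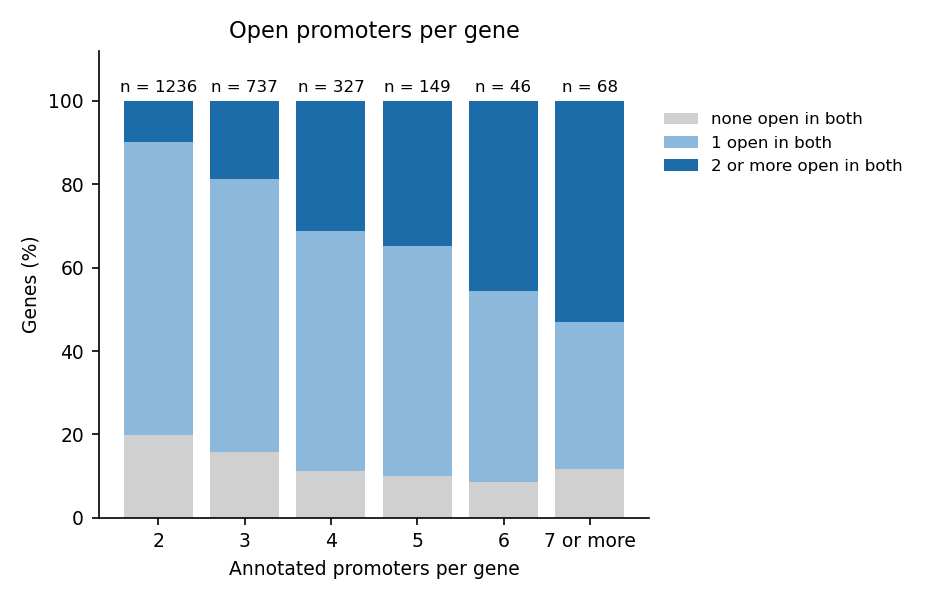
Share of genes (%) with no promoter, 1 promoter, or 2 or more promoters open in both libraries, by the number of annotated promoters per gene, with the number of genes above each bar. The part with 2 or more open grows along the axis from 9.95% with 2 annotated promoters to 52.9% with 7 or more.

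Where a gene had exactly 1 open promoter, it was the most upstream one in 1424 of 1663 genes (85.6%), an internal one in 147 (8.84%) and the most downstream one in 92 (5.53%). In the 1236 genes with 2 promoters, the upstream one alone was open in 805, the downstream one alone in 62, both in 123 and neither in 246. The downstream promoter was open in 13.3% of the 928 genes with an open upstream promoter, and in 20.1% of the 308 genes with a closed one. These counts include starts not found, which were 1287 of the 2563 most downstream promoters. They were not set beside the same counts in shorter-span genes.

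Open promoters of the same gene could lie very far apart. In the 473 genes with 2 or more, the median distance between the outermost open promoters was 58.0 kb. The distance was 20 kb or more in 397 genes, 100 kb or more in 152 and 500 kb or more in 25. By distance from the most upstream promoter, and among found starts, 40.1% of promoters at 1 to 5 kb were open in both libraries, 23.4% at 5 to 20 kb, 21.1% at 20 to 50 kb, 25.4% at 50 to 100 kb and 29.7% at 100 to 500 kb. Beyond 500 kb 40 of 93 (43.0%) were open. The median values of the open ones ran the other way at long range, with 1.29 in replicate 1 and 2.45 in replicate 2 at 20 to 50 kb, and 0.774 and 1.36 beyond 500 kb.

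Among the 8 genes with the most widely separated open promoters were several surface proteins of neurons. Lsamp, an IgLON adhesion protein of neurons, had open promoters 1549 kb apart, with values of 2.85 in replicate 1 and 4.24 in replicate 2 upstream, and 0.781 and 2.28 downstream. Lrrc4c, a leucine-rich repeat protein of excitatory synapses, had open promoters 1149.7 kb apart with 0.574 and 0.845 upstream, and 0.748 and 1.32 downstream. The 2 open promoters of Lingo2, a leucine-rich repeat protein of neurons, were 1106 kb apart, and both were weak, with 0.652 and 0.878 upstream and 0.387 and 0.512 downstream. In Lsamp and Lingo2 the upstream promoter was the stronger in both libraries, in Lrrc4c the downstream one. Anks1b, a postsynaptic scaffold, had 3 open promoters over 956 kb, and Galntl6, a glycosyltransferase, 2 over 949.7 kb, the upstream one within 1 kb of a start of another coding gene. The widest pair of all was that of Fgfr2, a growth factor receptor, at 2861 kb, and its most upstream start lies within 1 kb of a start of another coding gene, so the peak there cannot be assigned to Fgfr2.

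A peak near the starts of 2 genes touches other members as well. Of the 2694 promoters open in both libraries, 303 (11.2%) lay within 1 kb of a coding start of another gene, at 14.9% of upstream, 2.79% of internal and 3.57% of downstream ones. Without such promoters, 402 genes had 2 or more open.

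The strongest promoter of a gene was usually the same in both libraries. It was the same in 2040 of the 2142 genes with an open promoter in each library (95.2%), a share that includes many genes with a single open promoter. Among the 473 genes with 2 or more open in both, it was the same in 394 (83.3%). In these 473 genes the strongest promoter was the most upstream one in 267 genes in replicate 1 and 259 in replicate 2, an internal one in 124 and 123, and the most downstream one in 82 and 91.

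Each of the 473 genes was also described by the ratio of its 2 strongest open promoters, upstream over downstream. The median log2 ratio was 0.39 in replicate 1 and 0.53 in replicate 2. The upstream promoter was the higher in both libraries in 254 genes and the downstream one in 142. The direction differed between the libraries in 75 genes and in 2 genes the values were equal in 1 library. The standard deviation of the difference between the libraries was 0.91 on the log2 scale, and across the 473 genes the ratios of the libraries had a Pearson correlation of 0.872 and a Spearman correlation of 0.861, as a description over genes that share the same 2 libraries. Of 206 genes with more than a 2-fold ratio in replicate 1, 2 had the other direction in replicate 2, and 178 were over 2-fold in the same direction in both.

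**Figure D3:**
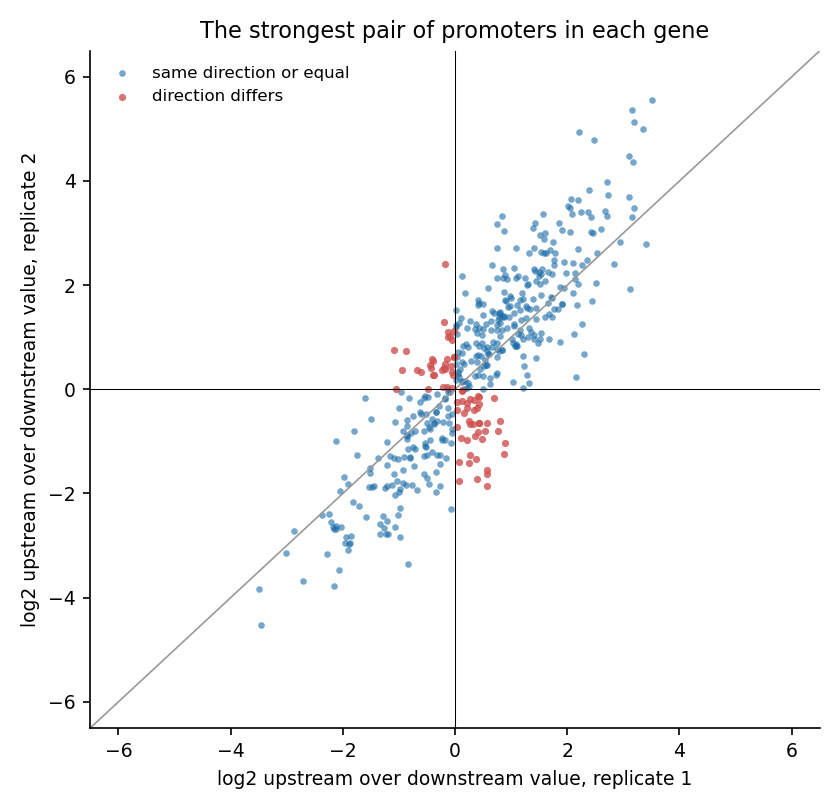
Log2 ratio of the 2 strongest promoters of each of 473 genes, upstream over downstream, in replicate 1 (horizontal) and replicate 2 (vertical); each point is a gene and the grey line marks equal ratios. Most points lie in the upper right (254 genes) and lower left (142 genes), and the 75 genes whose direction differs lie in the other two corners.

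Promoter choice changed the annotated start codon in most pairs that could be compared. For 327 of the 473 pairs a coding sequence with both ends found was annotated at both promoters, and in 230 (70.3%) the longest such sequences begin at different start codons. In these 230 pairs the median length was 722 residues from the upstream promoter and 567 from the downstream one. The upstream form was the longer in 163 pairs and the downstream form in 65. In the other 97 pairs the longest sequences of both promoters begin at the same start codon.

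Values at promoters open in both libraries were higher in replicate 2 by a median of 0.89 on the log2 scale (SD 0.64), against 0.99 over all genes, and 88.5% of these promoters were higher in replicate 2. The median difference was 0.95 at upstream, 0.76 at internal and 0.68 at downstream promoters. The difference was thus largest at the position with the highest median values, and a single pair of libraries has no further replicate to set this against.

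Few closed promoters held other signs of cutting. The authors also list short intervals whose cut rate had a false discovery rate under 0.05. Of the 4189 promoters open in neither library, 21 (0.501%) held such an interval in replicate 1 and 59 (1.41%) in replicate 2. The upstream promoter of Robo1, whose sequence is shown above, held one in replicate 2, with a rate of 0.000527. Of the 577 promoters open in replicate 2 alone, 55 (9.53%) held one in replicate 1. Footprints, the short protected gaps inside open sites, were found at 94.7% of open promoters in replicate 1 and 97.4% in replicate 2, with medians of 4 and 5. At closed promoters they were found at 0% and 0.0239%. Footprints and intervals come from the same cuts as the peaks, so they are not independent measures.

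CpG content separated open from closed promoters in these genes. The ratio of observed to expected CpG within 500 bp of the starts had a median of 0.736 at promoters open in both libraries, 0.322 at those open in 1 library and 0.234 at those open in neither. The median share of G and C was 60.7% at open and 45.5% at closed promoters. Over all genes the split was similar, with median CpG ratios of 0.724 at promoters open in both libraries and 0.198 at those open in neither. In the long-span genes CpG content also moved with position, with a median of 0.703 at upstream, 0.271 at internal and 0.256 at downstream promoters. Its part in the difference between positions was not tested. Among found starts with a ratio under 0.2, 2.39% of upstream, 2.84% of internal and 3.73% of downstream promoters were open in both libraries. At a ratio of 0.8 or over the shares were 98.4%, 88.6% and 89.8%. Between 0.4 and 0.6 the positions differed most, with 72.3% of upstream, 47.7% of internal and 49.3% of downstream promoters open.

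**Figure D4:**
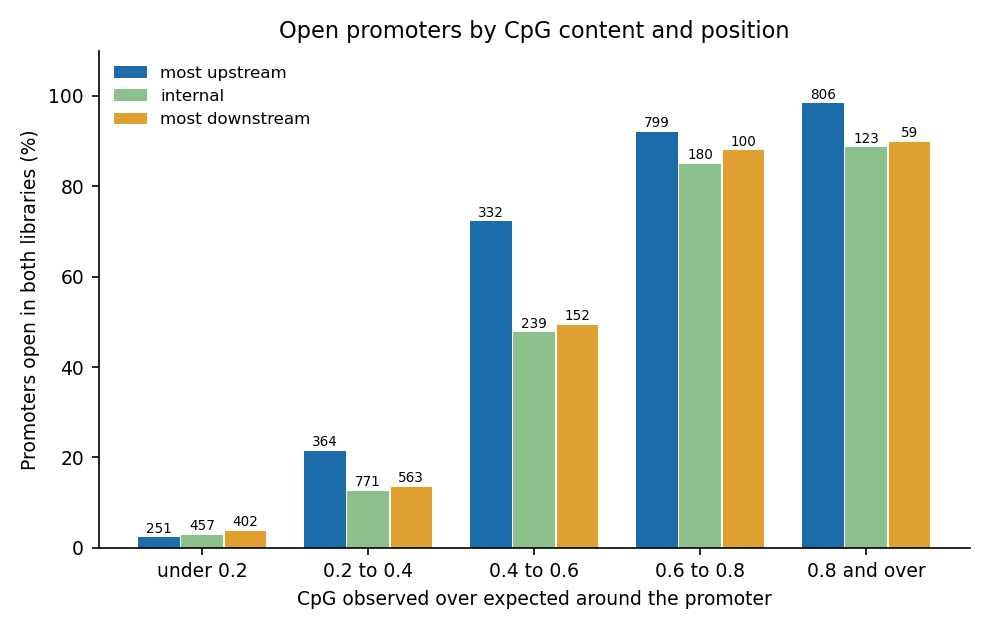
Share of promoters (%) open in both libraries by the observed over expected CpG ratio within 500 bp of the starts and by position in the gene, for promoters with a found start; numbers above the bars are promoters. In the lowest class the share is under 4% at every position and in the highest it is 88.6% or more, while between 0.4 and 0.6 upstream promoters reach 72.3% and the other two positions 47.7% and 49.3%.

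Short sequence words were counted on both strands in the 250 bases before and 50 bases after the most upstream start of each promoter. GGGCGG, the GC box, was found at 62.0% of the open promoters of these genes and 8.00% of the closed ones. Over all genes the shares were 63.9% and 9.94%. TATAAA, the TATA box word, was found at 5.09% of open and 18.4% of closed promoters, against 6.47% and 21.3% over all genes. TGACGTCA, the cyclic AMP response element, was found at 2.64% of open and 0.358% of closed promoters, against 3.63% and 0.527% over all genes. These splits between open and closed promoters were thus not particular to the long-span genes. CCAAT (34.3% of open, 35.1% of closed, 36.97% of all promoters) and CAGCTG, an E-box of neuronal factors (16.04%, 18.2% and 16.2%), differed little. The words that hold a CpG were the ones more frequent at open promoters. Among open promoters, CAGCTG was found at 13.8% of upstream, 21.2% of internal and 20.5% of downstream ones.

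Groups of genes known in neurons and glia were described next, with every long-span gene of each list counted. Among 34 long-span genes for scaffolds and cytoskeleton, 22 had 2 or more promoters open in both libraries, 10 had 1 and 2 had none, and among 10 for growth factor signalling the counts were 6, 4 and 0. The counts were 10, 11 and 1 of 22 for cyclic nucleotide and kinase signalling, 12, 16 and 0 of 28 for adhesion and guidance, and 9, 11 and 5 of 25 for transcription factors. They were 7, 13 and 2 of 22 for receptors and channels, and 3, 5 and 0 of 8 for glia. In these lists the share with 2 or more, the lowest being 31.8% for receptors and channels, stood above the 18.5% of all the long-span genes. The listed genes have medians of 3 to 4 promoters, against 3 over all, and the lists were not matched for promoter number. The 34 scaffold and cytoskeleton genes held 163 promoters and the 25 transcription factor genes 98, against 7539 in 2563 over all. The part of promoter number in these shares was not tested. The share of promoters open in both libraries ran from 31.6% for transcription factors to 70% for growth factor signalling, against 35.7% over all. The lists were chosen with earlier results of these data known.

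**Figure D5:**
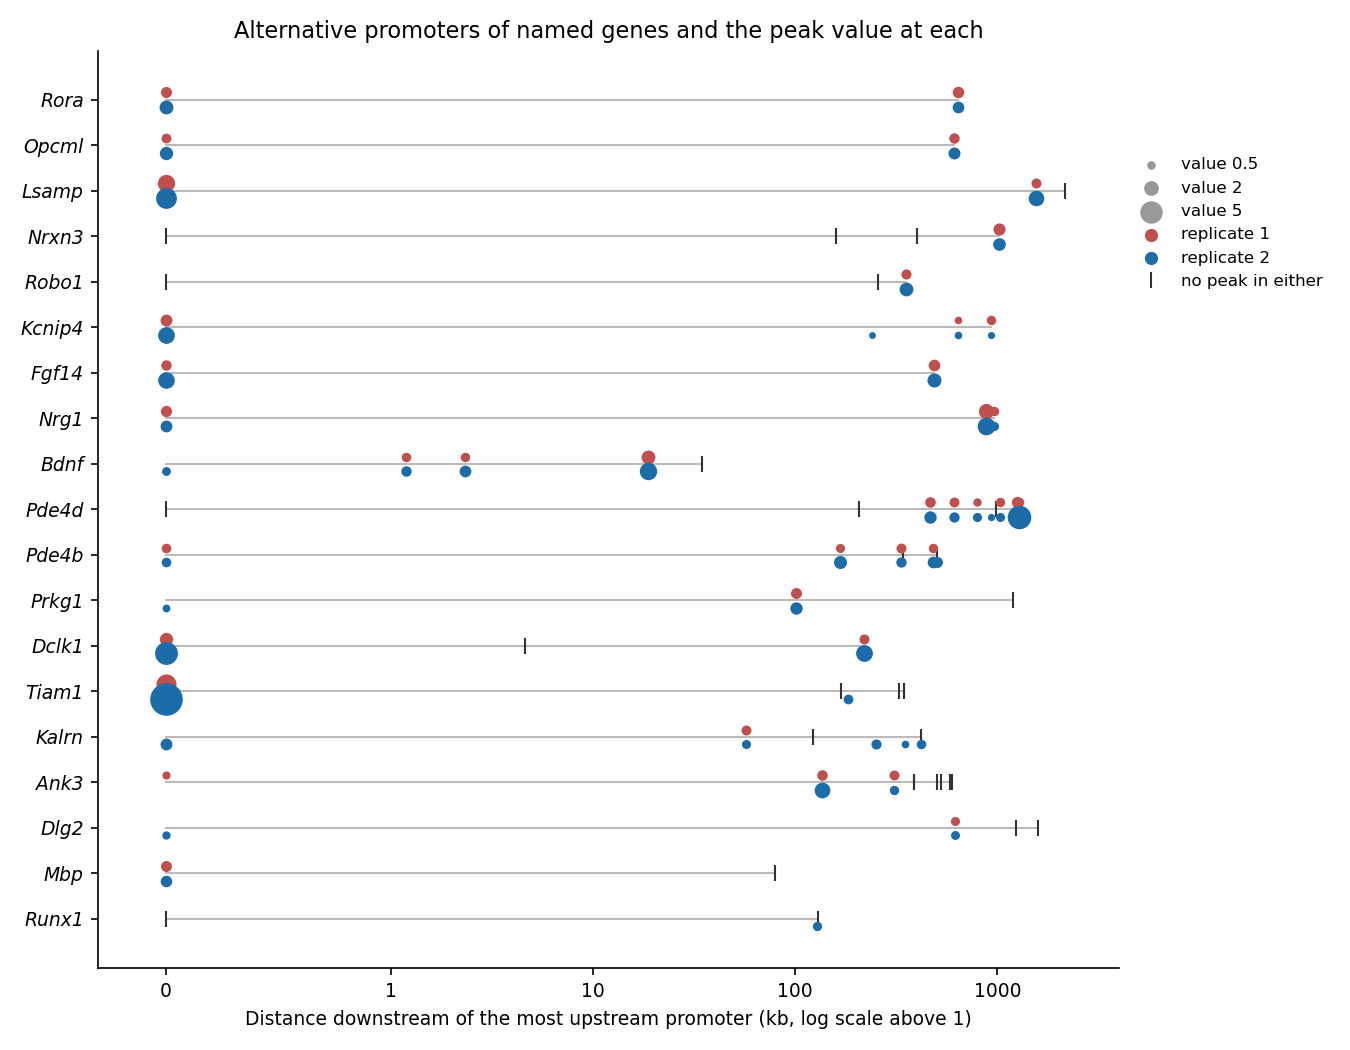
Promoters of named genes along each gene, as distance in kb downstream of the most upstream promoter (log scale above 1 kb); red points above the line are replicate 1, blue points below it replicate 2, point area grows with the peak value, and a tick marks a promoter open in neither library. Rora, Opcml, Fgf14 and Nrg1 show every promoter open in both libraries, Nrxn3 and Robo1 the most downstream one alone, and Mbp the upstream one alone.

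Among transcription factors, Rora, the nuclear receptor needed by Purkinje cells, had both promoters open over a distance of 636 kb. Its upstream promoter, which leads to a protein of 523 residues, had a value of 1.01 in replicate 1 and 1.74 in replicate 2. Its downstream promoter, which leads to 467 residues, had 1.12 and 1.16. The order of the 2 promoters differed between the libraries, so neither was the stronger one. The nuclear factor I genes Nfia, Nfib and Nfix, which act in granule neuron development, did not share a pattern. Nfia had 2.73 and 6.25 at its upstream promoter and 0.845 and 0.978 at a promoter 4.99 kb downstream that lies within 1 kb of a start of another coding gene. In Nfix the downstream promoter was open in both libraries with 1.34 and 4.99, and the upstream one in replicate 2 alone with 1.75. In Nfib the downstream promoter was open in replicate 2 alone, with 2.99, and the upstream one in neither. Tead1, a DNA-binding partner of the Hippo pathway, had the strongest promoter of the list, with 5.27 and 8.24 at its upstream end.

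In the adhesion and guidance group, Nrxn3, a presynaptic receptor, had the most downstream of 4 promoters open, for a form of 567 residues, with 1.27 in replicate 1 and 1.40 in replicate 2, and the promoter of the 1571-residue form was closed in both libraries. The IgLON protein Opcml had both promoters open 613 kb apart, with 0.735 and 1.58 upstream and 0.864 and 1.22 downstream. Robo1, a receptor for Slit guidance cues, had its most downstream promoter open with 0.793 and 1.72, which leads to the 1612-residue protein, and its other 2 promoters were closed, the middle one resting on a start not found in full. Ptprs, a receptor phosphatase of axons, ranked highest in the group by the mean over libraries, with 4.30 and 11.1 at its upstream promoter, and nearly as much, 3.82 and 10.04, at a promoter 14.2 kb downstream.

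Among receptors and channels, Grm7, a metabotropic glutamate receptor, had 0.729 in replicate 1 and 2.55 in replicate 2 upstream, and Grik1, a kainate receptor subunit, 0.639 and 1.34. Both had a closed downstream promoter, which in Grm7 rests on a start not found in full. Kcnip4, a calcium-binding subunit of A-type potassium channels, stood apart with 3 of 4 promoters open in both libraries over 925 kb. Its upstream promoter had 1.20 and 2.66, the third had 0.335 and 0.333, and the most downstream one had 0.671 and 0.266. Both values of the third promoter, and 0.266 in replicate 2, were among the weakest of the named genes. Kcnab2, a potassium channel subunit, had the strongest promoter of the group, 5.63 and 18.3, which lies within 1 kb of a start of another coding gene.

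In growth factor signalling, Bdnf, the neurotrophin whose promoters mostly lead to the same mature protein, had 5 promoters, with 3 open in both libraries. The fourth, 18.8 kb from the first, was the strongest with 1.74 in replicate 1 and 2.91 in replicate 2. The second had 0.677 and 0.878 and the third 0.671 and 1.17, the first was open in replicate 2 alone with 0.545, and the fifth in neither. Nrg1, a ligand of ErbB receptors, had all 3 promoters open over 966 kb. The middle one was the strongest with 2.12 and 3.01, the upstream one had 1.05 and 1.18 and the downstream one 0.658 and 0.605. Fgf14 and Fgf12 are intracellular relatives of fibroblast growth factors that bind sodium channels. Fgf14 had 0.871 and 2.62 upstream and 1.14 and 1.79 downstream, 484 kb away, so that its order differed between the libraries. Fgf12 had 2.24 and 8.79 upstream, well above 0.568 and 0.559 at its internal and 0.781 and 1.12 at its downstream promoter. Ntrk3, the receptor for neurotrophin 3, had its downstream promoter open with 0.916 and 1.64, for an 864-residue protein, and its upstream one closed.

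Cyclic nucleotide and kinase genes included the gene with the most open promoters. Pde4d, a cyclic AMP phosphodiesterase, had 12 promoters, of which 6 were open in both libraries over 810 kb. The fourth, which was open, and the seventh and twelfth, which were closed, rest on starts not found in full. The strongest in replicate 1 was the ninth, with 1.04 in replicate 1 and 1.88 in replicate 2, for a form of 584 residues. In replicate 2 it was the eleventh, with 0.703 in replicate 1 and 5.54 in replicate 2, for a form of 517 residues. The 2 most upstream promoters, which lead to forms of 747 residues, were closed in both libraries. Pde4b, its paralog, had 4 of 7 promoters open in both libraries over 483 kb, with values between 0.593 and 0.774 in replicate 1 and between 0.705 and 1.52 in replicate 2. Prkg1, the cyclic GMP-dependent kinase, had the promoter for its 686-residue form open with 0.987 and 1.32, and that of the 671-residue form, 101 kb upstream, in replicate 2 alone with 0.373. Dclk1, a kinase with microtubule-binding doublecortin domains, had 1.58 and 5.19 upstream for 756 residues, and 0.787 and 2.67 for a 452-residue form 219 kb downstream, and short forms of this kinase lack the doublecortin domains. Prkca, a protein kinase C, had its upstream promoter open with 2.73 and 6.75, within 1 kb of a start of another coding gene, and its downstream one closed.

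Trio, an exchange factor for Rac, had 4.75 in replicate 1 and 11.003 in replicate 2 upstream and 0.890 and 1.36 at a promoter 106 kb downstream. Tiam1, an exchange factor for Rac, had 3.94 and 10.8 upstream, and of its 5 other promoters 1 was open, in replicate 2 alone, with 0.738. The fifth and the most downstream promoter of Tiam1, both closed, rest on starts not found in full. Kalrn, the paralog of Trio, had 7 promoters, the third resting on a start not found in full, and no strong one. Its second was open in both libraries with 0.774 and 0.592, and 4 others were open in replicate 2 alone, with values between 0.346 and 1.20. Tiam2 had 0.535 and 0.858 upstream and 2 more promoters open in replicate 2 alone. The libraries therefore gave different counts of open promoters for Kalrn and Tiam2.

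Scaffold and cytoskeleton genes had many promoters each. Ank3, ankyrin G of the axon initial segment, had 10, of which the second (0.884 in replicate 1 and 2.32 in replicate 2) and the third (0.781 and 0.645) were open in both libraries, and the first in replicate 1 alone with 0.432. Ank2, ankyrin B, had its 4 most upstream of 8 promoters open, from 0.7999 to 0.993 in replicate 1 and from 1.63 to 3.62 in replicate 2. Dst, a linker of cytoskeletal filaments, had 4 of 7 open with its highest values, 1.66 and 2.62, at the upstream one, which lies within 1 kb of a start of another coding gene. Macf1, a linker of microtubules and actin, had 3 of 11 open and its highest values, 2.12 and 4.78, at an internal promoter. Most of the closed promoters of Macf1, and some of those of Ank3 and Dst, rest on starts not found in full. In Ank2 all promoters closed in both libraries do so. Dlg2, a postsynaptic scaffold with 4 promoters over 1585 kb, had its second open with 0.5999 and 0.565, and its first in replicate 2 alone with 0.446. Kif1b, a kinesin motor, had the strongest promoter of the list, 6.95 and 11.4, at its upstream end.

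In the glial list, Mbp had its upstream promoter open with 0.993 in replicate 1 and 1.12 in replicate 2. This promoter makes the Golli forms, which are not confined to myelin. The promoter 79.4 kb downstream, which makes the classic myelin basic protein of oligodendrocytes, was closed in both libraries. Qk, an RNA-binding protein of glia, had 2.75 and 6.63 upstream. Slc1a2, the astrocyte glutamate transporter, had 0.974 and 1.66 upstream and no other open promoter. Of its closed promoters, the third and the most downstream one rest on starts not found in full. Ntm, an IgLON protein also counted under adhesion, had 2 open promoters 551 kb apart with 0.890 and 1.62 upstream and 0.813 and 1.44 downstream.

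A list meant for muscle, liver and blood held 6 long-span genes, of which 0 had 2 or more promoters open in both libraries, 4 had 1 and 2 had none. Hnf4a, a liver and gut transcription factor, had all 3 promoters closed, and Runx1, a blood transcription factor, had 1 of 3 open, in replicate 2 alone, with 0.639. Esr1, the estrogen receptor, had its downstream promoter open with 0.697 in replicate 1 and 0.692 in replicate 2. Nebl, a muscle and actin-binding protein that is also made in other tissues, had 0.813 and 1.10 upstream. Camk2a also stands in this list although it is a kinase of forebrain neurons, and had 0.826 and 3.07 upstream, so the list is not a clean set of genes foreign to brain.

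Other genes with many open promoters were Gramd1b, a sterol carrier, and Cpeb3, a regulator of translation, with 5 open in both libraries each. Celf2, a splicing regulator, Frmd4a, a scaffold of cell polarity, and Dpp6, a subunit of A-type potassium channels, had 4 each. All 4 promoters of Dpp6 were open, over 445 kb, with values between 0.716 and 1.49 in replicate 1 and between 0.712 and 1.92 in replicate 2. All 5 promoters of Celf2 were open in replicate 2 and 4 in replicate 1, with values between 0.413 and 0.897 in replicate 1. In both genes every value was under the medians of 2.03 and 3.96 of open upstream promoters.

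The strongest promoters of long-span genes included those of several genes used in most cells. Acin1, an RNA-processing factor, had 8.80 in replicate 1 and 23.6 in replicate 2 at its upstream promoter, and Fbh1, a DNA helicase, had 9.21 and 21.05. Both lie within 1 kb of a start of another coding gene. Nup153, of the nuclear pore, had 11.1 and 16.7, Eif4g3, a translation initiation factor, 8.06 and 18.8, and Btrc, a subunit of ubiquitin ligases, 7.62 and 18.2. In Nup153, Eif4g3, Btrc and Fbh1 every other promoter was closed in both libraries, and in Nup153 and Fbh1 these all rest on starts not found in full. Bicdl1, an adaptor for dynein, was the exception in position, with 7.93 and 16.6 at its most downstream promoter and 1.21 and 1.29 at its upstream one.

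In some genes the leading promoter differed between the libraries, and Cfap61, a protein of cilia, did so most. Its second promoter, which rests on a start not found in full, had 2.26 in replicate 1 and 1.08 in replicate 2, and its first, within 1 kb of a start of another coding gene, had 1.99 and 5.70. Lmo3, a transcriptional cofactor, had 0.593 and 0.213 at its upstream promoter, 0.593 and 0.832 at the third and 0.510 and 1.06 at its most downstream one, so the first and the third were level in replicate 1. Enpp2, the enzyme autotaxin, had 1.26 and 0.785 upstream and 0.852 and 2.43 downstream, where the 914-residue enzyme starts. Ctnna1, alpha-catenin, had 0.781 and 0.539 upstream and 0.529 and 1.95 downstream, which lies within 1 kb of a start of another coding gene.

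Long genes with no open promoter in either library included, among those with the longest spans, B3galt1, a galactosyltransferase, Ccdc7a, Tln2, a talin, Pik3c2g, a lipid kinase, and Dnah14, a heavy chain of ciliary dynein. At the limit of 20 kb, Mas1 (20.023 kb), Elovl6 (20.025 kb) and Dctn1 (20.026 kb) were just inside, with 0, 1 and 2 promoters open in both libraries. Asb8 (19.966 kb), Oc90 (19.959 kb) and Rasa4 (19.978 kb) were just outside, with 1, 0 and 1.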

How the data were processed

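The authors deposited, for each library, 2 narrowPeak lists, intervals of the cut rate and footprints, made from the alignments of that library to mm10, per the labels and the deposited description files. The peak signal was normalised by the authors, with a factor not stated there. The interval files hold a false discovery rate (q-value) deposited for intervals under 0.05. Footprints were deposited with the value 0.01 on every line, which is not a measurement, and their positions were used. The aligner and callers were not given in the sources used here.

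Promoters came from GENCODE M21 on GRCm38 (mm10), and sequence from RefSeq GRCm38. Peaks were joined to promoters, and ratios and CpG content computed, with Python 3.11.15, numpy 2.4.6 and pandas 2.3.3. The calls were tested on simulated peaks. No test was run, since the series holds 1 group of 2 libraries, and genes are not replicates. Depth per library is unknown. The members and gene lists were chosen with earlier results of these data known. Named genes were the first 4 members of each list and its strongest member, the 8 members with the most open promoters, those with the farthest open promoters, the strongest, those whose leading promoter differed most, those next to the 20 kb limit, and the longest with none open. Some of these are not reported here.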

Additional observations from a re-analysis of the deposited data

How the results depend on the processing

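Of 56 alternative values for 6 results, 40 stayed within the limit set for them and 16 moved. The median log2 difference between the libraries (0.885) lay between 0.804 and 0.959 under its alternatives, and none counted as moved. Its limit was the SD across promoters (0.644), which is wide for a median, so this outcome decides little. The number of genes with 2 or more promoters open in both libraries (473) was 263 (10.3%) with the stricter peak list and 306 of 1268 genes (24.1%) with basic transcripts alone, and ranged from 513 to 751 when either library was left out. The percentage of open promoters (35.7) was 29.2 with the stricter list and 42.4 with basic transcripts, and ranged from 36.8 to 43.4 by library. Genes with no open promoter (255, 9.95%) numbered 158 (12.5%) with basic transcripts and 88 (6.51%) at a span of 50 kb. By library they ranged from 277 (10.8%) to 399 (15.6%). Genes with the same strongest promoter (2040, 95.2%) numbered 940 (92.6%) with basic transcripts, 1107 (93.4%) at 50 kb and 1186 (92.9%) with found starts alone. The found-start alternative was chosen after seeing the data. Genes led by their most upstream promoter in both libraries numbered 230 (48.6% of genes with 2 or more open). They were 120 (45.6%) with the stricter list, 144 (47.1%) with basic transcripts and 152 (46.1%) at 50 kb. Counted within 1 library alone, they ranged from 292 (56.9%) to 449 (59.8%). For these last 2 results the counts moved more than the shares. The basic, 50 kb and found-start alternatives hold fewer genes (1268, 1352 and 1568). No paired analysis was possible because the series holds 1 group. Without a library, the shared strongest promoter and the difference have no value. Depth is unknown, and closed means no peak at this depth.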
